A study of Drosophila melanogaster with 6 samples.

Results

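The 9 genes described here encode enzymes that make or inactivate ecdysteroids, the steroid hormones of insects. They are *neverland* (*nvd*), *shroud* (*sro*), *spook* (*spo*), *spookier* (*spok*), *phantom* (*phm*), *disembodied* (*dib*), *shadow* (*sad*), *shade* (*shd*) and *Cyp18a1*. They were picked by gene name from the 17558 genes of the deposited tables. The tables hold RNA sequencing of dissociated abdominal fat body cells of adult *Drosophila melanogaster* females, with 3 libraries labelled *svp* RNAi and 3 *Luc* control RNAi libraries. The study compared them to find genes that depend on the nuclear receptor Svp in the fat body, the tissue of adipocytes and oenocytes that stores nutrients and supports egg production.

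Females of both groups carried *y w*, the oenocyte driver *PromE800-Gal4*, the adipocyte driver *3.1Lsp2-Gal4* and *tub-Gal80ts*, which holds the drivers off in the cool. The *svp* RNAi females carried *UAS-svp GD1546*, a hairpin against *svp*, and the control females carried *UAS-Luc JF01355*, a hairpin against firefly luciferase, although the labels give the controls' genotype as wild type. Both were raised at 18 °C, were collected at 0 to 2 days of age, stayed at 18 °C with *y w* males for another 3 days, and then spent 5 days at 29 °C, the temperature at which the hairpins are expressed. Each library pooled the carcasses of 100 females, so spread between libraries is spread between pools. Each group carried a single hairpin line, so effects of the hairpin, of its insertion and of the stock it came from cannot be told apart.

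Ecdysteroids are built from dietary sterols. Nvd dehydrogenates cholesterol, Sro, Spo and Spok act in poorly resolved steps that follow, and the cytochrome P450 enzymes Phm, Dib and Sad add hydroxyl groups in turn to give ecdysone. Shd, another P450, turns ecdysone into the more active hormone 20E in target tissues, and Cyp18a1 oxidizes the side chain of 20E and so inactivates it. In larvae the steps up to ecdysone take place in the prothoracic gland. In adult females the follicle cells of the ovary are a known source of ecdysone, and the hormone controls oogenesis and nutrient storage. The genes up to *sad* are often called Halloween genes, together with *shd*, after the embryonic phenotypes of their mutants.

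The libraries held 15648948 to 19476599 fragments assigned to genes, and SE below is the standard error of a log2 fold change. Two-sided edgeR quasi-likelihood tests covered the 9277 genes that passed a filter on low counts, and a gene was called where its Benjamini-Hochberg adjusted p was under 0.05. *svp* itself was not lower in libraries labelled *svp* RNAi, with 1480, 1214 and 1421 counts there against 678, 1141 and 1168 counts in *Luc* control RNAi libraries (log2 fold change 0.35, SE 0.39, edgeR adjusted p = 1.00). The lowest of these was *Luc* control RNAi replicate 1. Reads from the *svp* hairpin cannot be told apart from reads of the *svp* gene in these counts, and their part was not tested. Every direction below is therefore one between labelled groups. *Luc* control RNAi replicate 1 stood apart from the other 5 libraries, and edgeR called 61 genes without it against 9 with it. Its summed level of 5 fat body markers was the lowest of the 6 libraries, at 54752 CPM (counts scaled to library totals by TMM), and so was that of 3 oenocyte markers, at 5801 CPM. The fat body markers, among them the yolk protein genes, were abundant in all 6 libraries. RNA marking other cell types was also present. Midgut markers summed to 30.4, 5.08 and 535 CPM in libraries labelled *svp* RNAi and 1068, 9.50 and 6.49 CPM in the controls. Hemocyte markers lay between 624 and 1968 CPM, muscle markers between 192 and 1309 CPM and Malpighian tubule markers between 57.5 and 108 CPM. Ovary markers are given below. The libraries high in midgut markers were *svp* RNAi replicate 3 and *Luc* control RNAi replicate 1. They had the highest *phm* of their groups, at 137.0 and 1.66 CPM. *svp* RNAi replicate 2, with the lowest midgut markers, had *phm* at 100.5 CPM. The part of midgut RNA in the level of *phm* was not tested. Fewer cells of a type and less RNA per cell cannot be told apart in these pooled samples.

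Of the 9 genes, 6 passed the filter on low counts, and 1 of these, *phm*, was called, higher in libraries labelled *svp* RNAi. Across all genes tested edgeR called 9 genes (0.097%), of which 2 were higher (0.0216%) and 7 were lower (0.0755%). *phm* also passed DESeq2's Wald test, which called 152 of 10589 genes (1.44%), and DESeq2 called no other of the 9. The 3 genes left out of the test were *nvd*, *dib* and *spok*, and all 9 are described below with their values in each library.

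**Figure D1:**
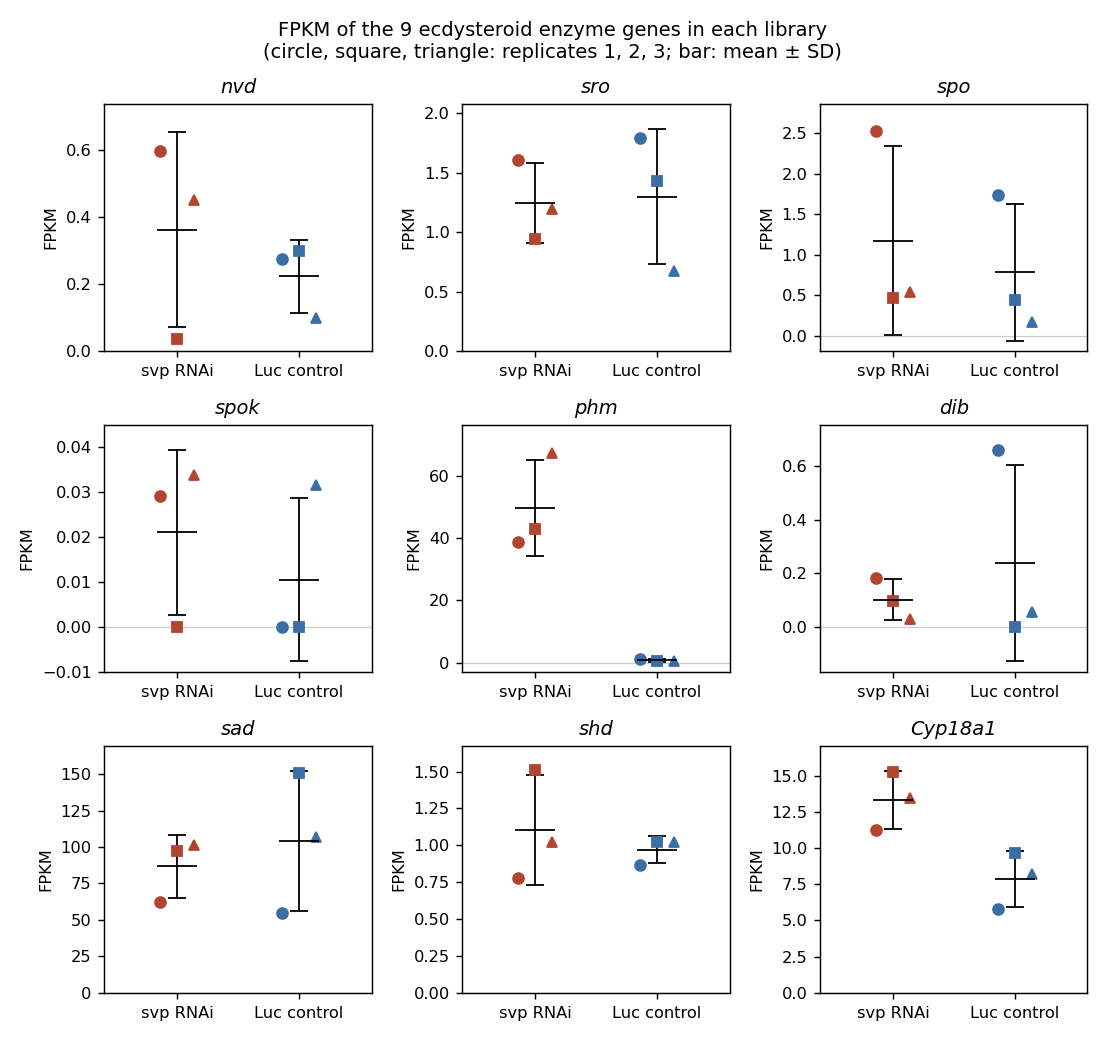
FPKM (fragments per kilobase of gene length, scaled to the library total) of each of the 9 genes in the 3 libraries labelled *svp* RNAi (left, red) and the 3 *Luc* control RNAi libraries (right, blue), with the mean and SD as bars and a separate axis for each gene. *phm* lay between 38.7 and 67.3 in libraries labelled *svp* RNAi and at 1.10 or less in the controls, whereas *sad* was high in both groups.

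*phm* (FBgn0004959; chromosome X from 18685766 to 18688433, plus strand, 4 exons; BDGP6) encodes the P450 that hydroxylates the sterol side chain early among the hydroxylation steps. It had 1582, 1405 and 2365 counts in libraries labelled *svp* RNAi, against 39, 17 and 19 counts in *Luc* control RNAi libraries. Per length, these were 38.7, 42.8 and 67.3 FPKM in libraries labelled *svp* RNAi and 1.10, 0.460 and 0.504 FPKM in the controls. All 3 libraries labelled *svp* RNAi lay far above all 3 controls, and the spread within each group was small beside the gap. Mean FPKM was 49.6 ± 15.5 in libraries labelled *svp* RNAi and 0.687 ± 0.355 in the controls (SD, n = 3 each; p = 0.1 by an exact two-sided permutation test, the smallest p possible with 3 libraries against 3).

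The log2 fold change of *phm* was 6.22 (SE 0.36, edgeR adjusted p = 0.00224), which is a fold of 74.5 with a 95% interval from 41.1 to 135. It took rank 3 by log2 fold change and rank 3 by p among the genes tested. Its mean FPKM was above that of 90.8% of protein-coding genes in libraries labelled *svp* RNAi and above that of 38.8% in the controls. DESeq2 gave a log2 fold change of 6.20 (adjusted p = 2.96e-53). When each of the 6 libraries was left out in turn, the log2 fold change stayed between 5.97 and 6.43 and the edgeR adjusted p between 0.00265, without *Luc* control RNAi replicate 1, and 0.0442, without *Luc* control RNAi replicate 3. *phm* was the single gene of the 9 whose CPM did not overlap between the groups in either direction. Over all genes tested CPM did not overlap for 4.51% of genes that were higher and 4.82% that were lower.

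**Figure D2:**
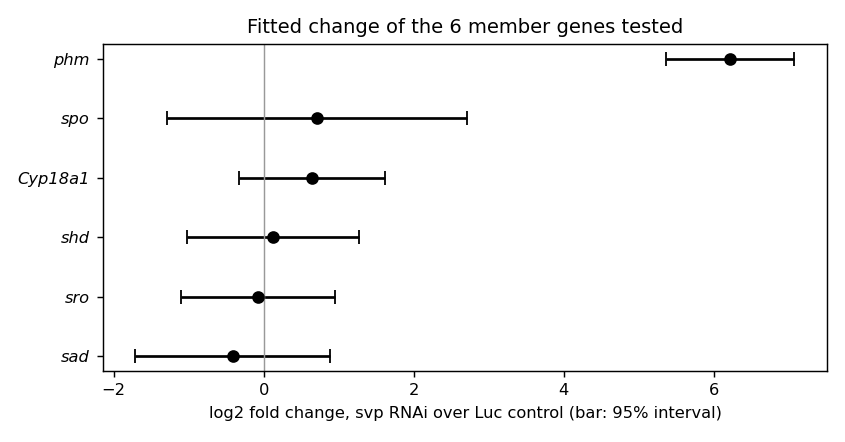
Log2 fold change, libraries labelled *svp* RNAi over *Luc* control RNAi, of the 6 genes that passed the filter on low counts (points) with 95% intervals (bars). The interval of *phm* runs from 5.36 to 7.08, and the intervals of *spo*, *Cyp18a1*, *shd*, *sro* and *sad* include 0.

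*Cyp18a1* (FBgn0010383; chromosome X from 18688538 to 18693042, minus strand, 7 exons), the gene of the inactivating enzyme, lies 104 bases beyond the annotated end of *phm*, and the genes point toward each other. It had 574, 627 and 590 counts in libraries labelled *svp* RNAi, against 257, 445 and 386 counts in *Luc* control RNAi libraries. Its FPKM was 11.2, 15.3 and 13.4 in libraries labelled *svp* RNAi and 5.78, 9.63 and 8.20 in the controls. The groups did not overlap in counts or FPKM, but they overlapped in TMM-scaled CPM, with 26.0, 44.9 and 34.2 CPM in libraries labelled *svp* RNAi and 10.9, 30.2 and 26.1 CPM in the controls. The log2 fold change was 0.65 (SE 0.41, 95% interval from −0.33 to 1.62, edgeR adjusted p = 1.00), which is a fold from 0.797 to 3.07.

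Mean FPKM of *Cyp18a1* was 13.3 ± 2.02 in libraries labelled *svp* RNAi and 7.87 ± 1.95 in the controls (SD, n = 3 each; exact two-sided permutation test, p = 0.1). Without *Luc* control RNAi replicate 1, which had the lowest value, its log2 fold change was 0.35. The library kit did not mark strand and the strand setting of the counting is not stated, so reads that run past the end of *phm* cannot be told apart from reads of *Cyp18a1*, and their part in the *Cyp18a1* counts was not tested. The ratio of *phm* to *Cyp18a1* in FPKM was 3.44, 2.80 and 5.01 in libraries labelled *svp* RNAi and 0.190, 0.0477 and 0.0615 in the controls. *phm* thus exceeded *Cyp18a1* in each library labelled *svp* RNAi and was below it in each control. Among the other genes, *sad* was above *Cyp18a1* in every library and the rest were below it in every library.

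The other genes tested around *phm* gave no call. On its other side lies *CR44707*, a noncoding gene on the opposite strand 2462 bases away, with 16, 2 and 8 counts in libraries labelled *svp* RNAi and 9, 0 and 0 counts in the controls. Within 50 kb of *phm* lie 15 genes that are not among the 9, of which 6 were tested. The genes beyond *Cyp18a1* had too few counts to test. All 6 tested genes lie on the other side of *phm*. Their log2 fold changes ran from −0.31 (*Rip11*) to 0.12 (*CG6617*), with a median of −0.06, and none had even an unadjusted edgeR p under 0.05 or a DESeq2 call. Around all 9 genes, 58 of 95 neighbors within 50 kb were tested and edgeR called 0. An unadjusted edgeR p under 0.05 was found for 3 of them, against 4.99% of all genes tested. These were *CG1136* and *CG32259* near *dib* and *CG6959* near *sad*, of which DESeq2 called 1, *CG32259*. *CG32259* had 65, 49 and 112 counts in libraries labelled *svp* RNAi and 13, 10 and 10 counts in the controls (log2 fold change 2.76, edgeR adjusted p = 0.156, DESeq2 adjusted p = 8.04e-05).

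**Figure D3:**
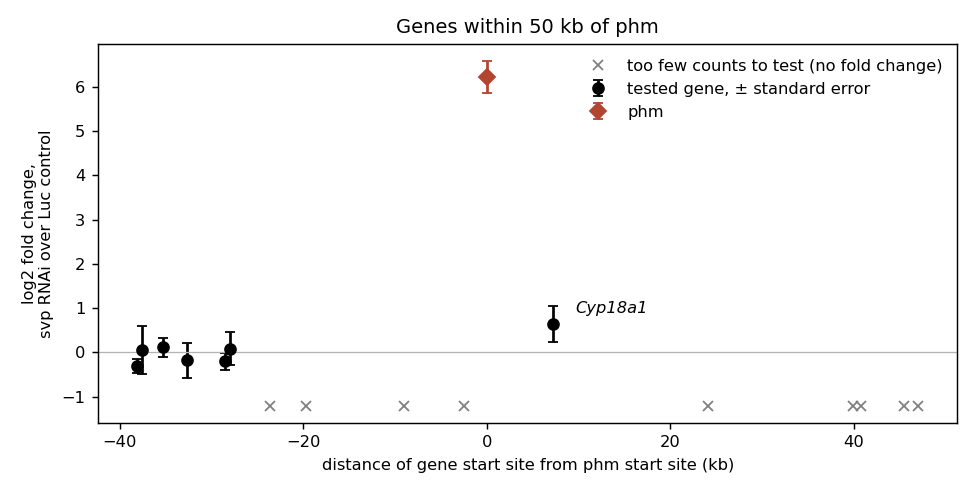
Log2 fold change, libraries labelled *svp* RNAi over *Luc* control RNAi, against the distance of each gene's start site from that of *phm* in kb, for genes within 50 kb. *phm* stands at 6.22, *Cyp18a1* at 0.65 and the other 6 genes tested between −0.31 and 0.12 (bars: standard error), and the crosses mark genes with too few counts to test, which have no fold change.

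*sad* (FBgn0003312; chromosome 3R from 11877235 to 11879754, plus strand, 6 exons) encodes the P450 of the last step to ecdysone. It had 62.1, 97.5 and 101.3 FPKM in libraries labelled *svp* RNAi, against 54.9, 150.6 and 107.2 FPKM in *Luc* control RNAi libraries. The groups overlapped, and the lowest and the highest library were both controls. Its mean FPKM was above that of 94.3% of protein-coding genes in libraries labelled *svp* RNAi and above that of 95.2% in the controls. Its log2 fold change was −0.42 (SE 0.54, 95% interval from −1.71 to 0.88, edgeR adjusted p = 1.00), with −0.80 (adjusted p = 0.353) without *Luc* control RNAi replicate 1 and 0.04 without *Luc* control RNAi replicate 2.

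The level of *sad* ordered the 6 libraries as the summed oenocyte markers did. *sad* had 97.2, 193.5 and 174.0 CPM in libraries labelled *svp* RNAi and 70.2, 319.0 and 230.5 CPM in the controls. The oenocyte markers, of which 3 of 7 names were found in the tables and which are dominated by *Cyp4g1*, the P450 of hydrocarbon synthesis, summed to 11596, 16791 and 16459 CPM in libraries labelled *svp* RNAi and 5801, 22407 and 18366 CPM in the controls. Among the 72 pairings of the 9 genes with 8 marker lists, this was the single one with the same order of libraries. Hemocyte and muscle markers came close, differing from *sad* only in the order of *svp* RNAi replicate 2 and *Luc* control RNAi replicate 3. Per 1000 counts of *Cyp4g1*, *sad* had 11.4, 15.4 and 13.7 counts in libraries labelled *svp* RNAi and 16.9, 16.9 and 17.1 counts in the controls. This ratio was chosen after the values were seen and is given as a description, and the part of oenocyte RNA in the level of *sad* was not tested. On the same scale *phm* had 8.43, 8.01 and 10.8 counts in libraries labelled *svp* RNAi and 0.399, 0.0611 and 0.0952 counts in the controls, and the part of oenocyte RNA in the level of *phm* was not tested either.

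**Figure D4:**
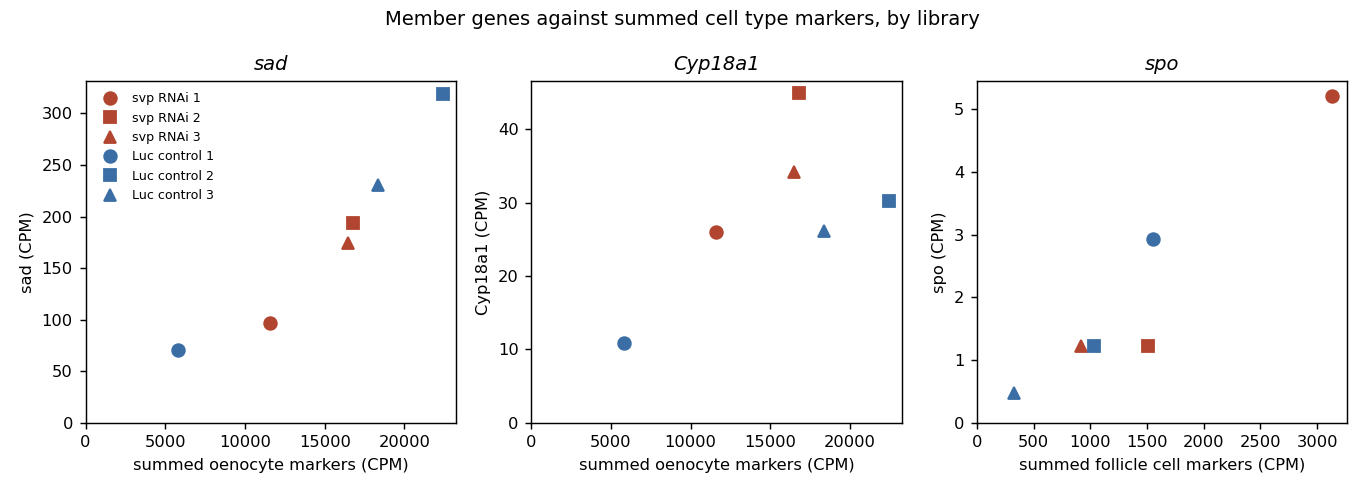
CPM of *sad* and *Cyp18a1* against summed oenocyte markers and CPM of *spo* against summed follicle cell markers, one point per library (red, libraries labelled *svp* RNAi; blue, *Luc* control RNAi; circle, square and triangle, replicates 1, 2 and 3). *sad* runs from 70.2 to 319.0 CPM in the same order of libraries as the oenocyte markers, and *spo* is highest in replicate 1 of each group, at 5.21 and 2.94 CPM.

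*shd* (FBgn0003388; chromosome 3L from 14614458 to 14622205, plus strand, 10 exons), whose enzyme makes the active hormone in target tissues, was low. It had 0.776, 1.51 and 1.03 FPKM in libraries labelled *svp* RNAi and 0.867, 1.02 and 1.02 FPKM in the controls, from 36 to 58 counts per library. The groups overlapped, and the log2 fold change was 0.13 (SE 0.48, edgeR adjusted p = 1.00), with a 95% interval of the fold from 0.493 to 2.42.

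*dib* (FBgn0000449; chromosome 3L from 4062292 to 4064551, plus strand, 4 exons), whose P450 acts between Phm and Sad, had 7, 3 and 1 counts in libraries labelled *svp* RNAi and 22, 0 and 2 counts in the controls. Most of its control counts came from replicate 1. It was too low to test, and without the filter on low counts its log2 fold change was −0.89 (SE 1.32). Where a library has 0 counts, up to 3 counts are possible by counting error alone, or 0.128 to 0.215 CPM by library. *dib* was thus at 0.182, 0.0971 and 0.0303 FPKM in libraries labelled *svp* RNAi, where the genes of the steps on either side of it, *phm* and *sad*, averaged 49.6 and 87.0 FPKM. In the controls *dib* was at 0.657, 0 and 0.0564 FPKM, with *sad* high and *phm* low.

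The genes of the early steps were all low. *nvd* (FBgn0259697; chromosome 3L from 24324866 to 24401655, plus strand), the oxygenase gene of the first step, had 20, 1 and 13 counts in libraries labelled *svp* RNAi and 8, 9 and 3 counts in the controls. It did not pass the filter, and without the filter its log2 fold change was 0.62 (SE 0.94). *spok* (FBgn0086917; chromosome 3R from 3322810 to 3354486, plus strand, 2 exons), whose role is known in the larval prothoracic gland, had 1, 0 and 1 counts in libraries labelled *svp* RNAi and 0, 0 and 1 counts in the controls. No library exceeded the 3 counts that a 0 allows, so no fold is given and *spok* was not detectable at this depth.

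*sro* (FBgn0262112; chromosome 3R from 29794597 to 29795805, plus strand, 2 exons), which encodes a dehydrogenase of the short-chain family, had 1.602, 0.941 and 1.19 FPKM in libraries labelled *svp* RNAi and 1.79, 1.43 and 0.676 FPKM in the controls. Its log2 fold change was −0.07 (SE 0.43, edgeR adjusted p = 1.00), with a 95% interval of the fold from 0.468 to 1.94. *spo* (FBgn0003486; chromosome 3L from 5590083 to 5592571, minus strand, 2 exons), a P450 gene known to be expressed in the ovary, had 115, 17 and 21 counts in libraries labelled *svp* RNAi and 69, 18 and 7 counts in the controls. Replicate 1 was the highest library of each group. Its log2 fold change was 0.71 (SE 0.84, edgeR adjusted p = 1.00), with a 95% interval of the fold from 0.409 to 6.55, and it was −0.36 without *svp* RNAi replicate 1.

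RNA of the ovary, in which *spo* and *phm* are known to be expressed, was followed with marker genes. All 20 follicle cell marker genes, which encode vitelline membrane and eggshell proteins, were tested and edgeR called 0 of them (1 at an unadjusted p under 0.05, and 0 by DESeq2), while 19 had a log2 fold change above 0 (median 0.65). Their summed level was 3127, 1505 and 916 CPM in libraries labelled *svp* RNAi and 1549, 1034 and 324 CPM in the controls, so replicate 1 was the highest of each group, as it was for *spo*, whereas *spo* was about equal in *svp* RNAi replicates 2 and 3 and control replicate 2, where the markers differed. Germline markers summed to 717, 273 and 561 CPM in libraries labelled *svp* RNAi and 1037, 211 and 459 CPM in the controls, and were also highest in replicate 1 of each group. *phm* was highest in *svp* RNAi replicate 3, where the follicle cell markers were lowest of the libraries labelled *svp* RNAi. *Luc* control RNAi replicate 1 had follicle cell markers above those of *svp* RNAi replicates 2 and 3, and *phm* at 1.66 CPM against 100.5 and 137.0 CPM in these. The part of ovary RNA in the levels of *spo* and *phm* was not tested.

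Genes on the opposite strand overlap 4 of the 9. The exons of *wit* overlap those of *dib* by 400 bases, those of *l(3)psg2* overlap *spo* by 308, those of *CG7837* overlap *sro* by 109 and those of *CG6962* overlap *sad* by 53. *wit*, the gene of a BMP receptor, had 390, 233 and 297 counts in libraries labelled *svp* RNAi and 146, 238 and 180 counts in the controls (log2 fold change 0.58, edgeR unadjusted p = 0.147). The log2 fold changes of *CG6962*, *l(3)psg2* and *CG7837* were −0.06, −0.09 and −0.19. Without strand, reads from such an overlap cannot be assigned to either gene, so the low counts of *dib*, *spo* and *sro* are uncertain by the reads of their partners.

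Within the group of 9 genes, the order of levels per length differed between the labelled groups mainly by the place of *phm*. In the libraries labelled *svp* RNAi, *sad* (mean 87.0 FPKM) and *phm* (49.6 FPKM) led with overlapping ranges, followed by *Cyp18a1* (13.3 FPKM), then *sro*, *spo* and *shd* between 1.10 and 1.24 FPKM with overlapping ranges, then *nvd*, *dib* and *spok*. In the controls, *sad* (104 FPKM) was followed by *Cyp18a1* (7.87 FPKM), and *sro*, *shd*, *spo*, *phm*, *dib* and *nvd* followed, each with a range that overlapped the next, before *spok*. *phm* made up 32.8%, 27.0% and 36.3% of the summed FPKM of the 9 genes in libraries labelled *svp* RNAi, against 1.63%, 0.281% and 0.428% in the controls. *sad* made up 52.8%, 61.5% and 54.6% in libraries labelled *svp* RNAi and 81.8%, 91.9% and 90.9% in the controls. A higher *phm* lowers the share of every other gene in the sum, and the FPKM of *sad* itself overlapped between the groups. These shares describe transcripts of different genes in mixed cells, and no hormone or protein was measured.

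Genes that supply sterols to the pathway, carry its products or respond to them gave no edgeR call. In 5 lists (sterol supply, P450 redox partners, transport and conjugation, regulators of the biosynthesis genes, and receptor with targets) 41 different genes were tested and edgeR called 0. An unadjusted edgeR p under 0.05 was found for 2, *GstE14* and *Eip71CD* (4.99% over all genes tested). DESeq2 fitted 50 of the listed genes, some too low in counts for an adjusted p, and called 1, *Eip71CD* (1.44% over all genes with an adjusted p). These counts were near the shares over all genes. The median log2 fold change of all genes tested was −0.06.

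Among sterol supply genes, 9 of 14 were tested, with a median log2 fold change of −0.04. *GstE14* (*noppera-bo*), a glutathione transferase gene that steroidogenic cells need for handling cholesterol, had 25, 13 and 15 counts in libraries labelled *svp* RNAi and 1, 5 and 3 counts in the controls. Its groups did not overlap, but it did not pass the test (log2 fold change 2.38, SE 0.72, edgeR adjusted p = 0.659, DESeq2 adjusted p = 0.280). *GstE14* passed the filter on low counts only through the libraries labelled *svp* RNAi, where it was high. Its lack of overlap and its low unadjusted p are partly set by that filter and are no separate evidence. In the other direction, 1 gene of the list, *Start1*, was lower without overlap in CPM (log2 fold change −0.18). Over all genes tested the shares without overlap were 4.51% higher and 4.82% lower. The most abundant of the list was *Npc2g*, a gene of the sterol-binding NPC2 family, with mean levels of 691 CPM in libraries labelled *svp* RNAi and 589 CPM in the controls (log2 fold change 0.23).

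The redox partners that hand electrons to P450 enzymes, *Cpr* in the endoplasmic reticulum and *dare* and *Fdxh* in mitochondria, had log2 fold changes between −0.29 and −0.08, and *Cpr* averaged 545 CPM in libraries labelled *svp* RNAi and 667 CPM in the controls. Of the 3 transport genes tested, *Atet*, an ABC transporter gene linked to ecdysone release, was the most abundant, with 99.4 CPM in libraries labelled *svp* RNAi and 72.7 CPM in the controls (log2 fold change 0.45, edgeR adjusted p = 1.00). *Oatp74D*, the gene of the ecdysone importer, had a log2 fold change of −0.23. Of 14 regulators of the biosynthesis genes, 13 were tested, with log2 fold changes between −0.87 and 0.57 and a median of 0.05. *cnc*, the gene of the fly Nrf2 protein and the most abundant of this list, averaged 348 CPM in libraries labelled *svp* RNAi and 275 CPM in the controls without overlap (log2 fold change 0.34, edgeR adjusted p = 1.00).

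The hormone's receptor and target genes were read as the other end of the pathway. Of 23 genes found, 18 were tested, with a median log2 fold change of 0.03. *EcR* and *usp*, the subunits of the ecdysone receptor, both had a log2 fold change of 0.02. The classical early target *Eip75B*, the most abundant of this list, averaged 93.1 CPM in libraries labelled *svp* RNAi and 90.0 CPM in the controls (log2 fold change 0.05). *Eip71CD*, an ecdysone-induced gene that encodes a methionine sulfoxide reductase, had 1759, 1388 and 1363 counts in libraries labelled *svp* RNAi and 346, 538 and 573 counts in the controls. All 3 libraries labelled *svp* RNAi lay above all controls. Its log2 fold change was 1.52 (SE 0.38), and the call depended on the fit, with an adjusted p of 0.436 by edgeR, 0.0139 by DESeq2, 0.0242 and 0.0291 by limma on log2(FPKM + 1) and log2(FPKM + 0.1), and 0.0491 by edgeR without *Luc* control RNAi replicate 1.

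Since most of the 9 genes encode P450 enzymes, the other genes with a *Cyp* symbol served as a comparison. Of 85, 71 were tested, and edgeR called 0 higher, against 0.0216% of all genes tested, and 2 lower, against 0.0755%. An unadjusted p under 0.05 was found for 4 higher and 10 lower genes, against 4.99% of all genes in either direction, and DESeq2 called 2 higher and 6 lower, against 1.44%. The 2 that edgeR called lower were *Cyp4p2* and *Cyp4e3*. *Cyp4p2* had mean levels of 1.10 CPM in libraries labelled *svp* RNAi and 42.0 CPM in the controls (log2 fold change −5.22, edgeR adjusted p = 0.0454). *Cyp4e3* had 21.8 CPM in libraries labelled *svp* RNAi and 164 CPM in the controls (log2 fold change −2.91, edgeR adjusted p = 0.0470). Both calls were lost when any single library was left out, except for *Luc* control RNAi replicate 1, with edgeR adjusted p between 0.113 and 0.295 for *Cyp4p2* and between 0.0775 and 0.295 for *Cyp4e3*. *Cyp6a8* had the highest fitted value of this comparison set (log2 fold change 2.55). It missed the threshold by edgeR (adjusted p = 0.0523) and passed it by DESeq2 (adjusted p = 1.52e-11). The median log2 fold change of the 71 genes was −0.0026, and *Cyp4g1*, the most abundant, had −0.12.

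The genes most like *phm* across the 6 libraries were sought by Pearson's r of log2 CPM over the 8089 genes tested whose more abundant group averaged 50 counts or more. They were *CG7536* and *Pkn*, a protein kinase gene, *CG13280*, *PPO3*, a prophenoloxidase gene, and *Ect3*, a β-galactosidase gene, with r between 0.97 and 0.99. The 6 points share libraries and depth, and r disregards the size of a change, so *CG7536* stands first with a log2 fold change of only 0.16. Most of the spread of *phm* lies between the groups, so this search favors genes that differ between them. The tests of these genes are therefore no separate evidence. *Ect3* was itself called, with 548, 336 and 324 counts in libraries labelled *svp* RNAi and 116, 73 and 56 counts in the controls (log2 fold change 2.30, edgeR adjusted p = 0.0454), a call that was lost in both limma fits and when any single library but *Luc* control RNAi replicate 1 was left out, with adjusted p between 0.0975 and 0.280. *CG13280* had 186, 122 and 134 counts in libraries labelled *svp* RNAi and 0, 1 and 4 counts in the controls, with an adjusted p of 0.0705 by edgeR and 4.91e-14 by DESeq2. *PPO3* had 55, 52 and 50 counts in libraries labelled *svp* RNAi and 24, 11 and 10 counts in the controls (adjusted p = 0.309 by edgeR and 0.0225 by DESeq2).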

How the data were processed

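The authors sequenced poly(A)-enriched RNA on a NovaSeq instrument from libraries made with the NEBNext Ultra kit, aligned the reads with TopHat to the Ensembl reference and made counts per gene with HTSeq. Tool versions, the strand setting and how multiply mapped reads were handled are not given in the sources used here. The counts as deposited are whole numbers without normalization. The FPKM values, deposited beside them, were made by the authors from these counts, for about 51.6% of genes with the listed gene length (within 0.1%) and otherwise with another length. The FPKM of *phm* used 2100 bases and that of *sad* 1773 bases.

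From the counts, edgeR 4.0.16 in R 4.3.3 tested 6 libraries, 3 per group, with filterByExpr, TMM scaling, a quasi-likelihood fit without covariates, and Benjamini-Hochberg adjustment over all 9277 genes tested at a threshold of 0.05. The standard error is the log2 fold change divided by the square root of F. The study's own method, DESeq2 (here 1.42.0), and limma 3.58.1 on log2(FPKM + 1) or log2(FPKM + 0.1) were among 13 alternative fits. The others were DESeq2's size factors, fits without a filter on low counts or with a minimum mean of 10 counts, the replicate number as a block, and leaving out each of the 6 libraries. Only the main edgeR fit and DESeq2 were tested on simulated counts. Mean FPKM was compared with exact two-sided permutation tests. Named genes are the 9 genes, genes of the lists with an adjusted or unadjusted p under 0.05 (of the other *Cyp* genes, only those called or with the highest fitted value) or the highest mean CPM of their list, *svp*, the gene on each side of *phm*, genes that overlap one of the 9, and the 5 genes most like *phm*. Others are named as members of a list or as neighbors with the lowest or highest value or a low p. The members and lists were chosen with earlier results of these data known.

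The labels name the 3 libraries of a group as replicates, and the study describes 3 separate experiments. None of the 6 pairs of libraries within a group was alike within counting noise. Coordinates are those of the deposited tables (BDGP6). Of 17558 identifiers, 17252 were found in the reference annotation and 16959 had the same coordinates, including 8 of the 9 genes. The identifier of *nvd* had no match, and *phm* is named *phtm* there. Protein and promoter sequences were not used here.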

Additional observations from a re-analysis of the deposited data

How the results depend on the processing

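The number of the 9 genes called was 1, *phm*, in the main edgeR fit and in each of 13 alternatives, and the log2 fold change of *phm* ranged from 4.88 (limma on log2(FPKM + 1)) to 6.43. Over the 6 fits that left out one library each, it ranged from 5.97 to 6.43. Among the other 41 ecdysteroid genes, DESeq2 and the edgeR fit without *Luc* control RNAi replicate 1 each called 1 in place of 0, *Eip71CD*, which limma called too, and the fits without one library gave between 0 and 1. Among genes within 50 kb, DESeq2 called 1 in place of 0, and within 100 kb edgeR called 0 of 116 tested, DESeq2 called 2 and the fit with a replicate block called 1. *Cyp4e3* also lost its call with a minimum mean of 10 counts (adjusted p = 0.0510), and *Cyp6a8* gained one with DESeq2's size factors (0.0458), without the filter (0.0210), with the replicate block (0.0254), without *Luc* control RNAi replicate 1 (0.0161) and in both limma fits (0.0138 and 0.0116). Genes that did not pass the test turned direction in some fits. *shd* lay between −0.29 and 0.39 over the fits that left out one library, and was below 0 without *svp* RNAi replicate 2 (−0.29) and without *Luc* control RNAi replicate 1 (−0.11). *sro* lay between −0.30 and 0.19, and was above 0 without replicate 2 of the control (0.19) or of the *svp* RNAi group (0.02), and at 0.011 in limma on log2(FPKM + 0.1). *sad* lay between −0.80 and 0.041, with the highest value without *Luc* control RNAi replicate 2. *spo* lay between −0.36, without *svp* RNAi replicate 1, and 1.62. Leaving out one library moved *Cyp18a1* between 0.35 and 0.92. The cause was not tested. Over all genes, the count of calls was 9 in the main fit, 152 in DESeq2, 14 with DESeq2's size factors, 25 without a filter, 55 and 53 in limma with pseudocounts of 1 and 0.1, 61 without *Luc* control RNAi replicate 1 and 3 to 5 without another library.

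Same-numbered libraries did not all deviate together from their group means (r = 0.54, 0.59 and −0.32 for numbers 1, 2 and 3), so the numbers were not taken as pairs. With the replicate number as a block, edgeR called 27 genes in all and 1 of the 9, *phm* (adjusted p = 0.00328), and *Cyp18a1* had a log2 fold change of 0.73 (adjusted p = 0.487). With 3 pools per group, changes of the size in the 95% intervals of *spo*, *sad*, *shd* and *sro* cannot be seen, and *nvd*, *dib* and *spok* had too few counts for any fold to be measured well.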
